A study of Mus musculus with 7 samples.

Results

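The RNA components of RNase P, RNase MRP, the 7SK particle, the signal recognition particle and telomerase, together with Y RNAs and a vault RNA, were examined in mouse CD8+ T cells exposed to small extracellular vesicles (sEV). The 9 genes were *Rpph1*, *Rmrp*, *Rn7sk*, *Rn7s1*, *Rn7s2*, *Terc*, *Rny1*, *Rny3* and *Vaultrc5*, taken by symbol from the 55367 genes of the deposited count table. They had been chosen with the difference between LME-sEV and HCME-sEV libraries in view, so their levels and fold changes in that comparison are given as a description, without a test. Of the 9 genes, 5 averaged 5 counts or more per library and entered the fit over 12623 genes, and 4 did not.

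These RNAs act as the cores of ribonucleoprotein particles and do not code for protein. RNase P, with *Rpph1* as its catalytic RNA, trims the leader from precursor transfer RNAs, and the related RNase MRP, built on *Rmrp*, cleaves precursor ribosomal RNA. 7SK RNA (*Rn7sk*) holds the elongation kinase P-TEFb in an inactive complex with HEXIM proteins, 7SL RNA (*Rn7s1*, *Rn7s2*) is the scaffold of the signal recognition particle, and *Terc* is the template that telomerase copies. Y RNAs (*Rny1*, *Rny3*) bind the Ro60 and La proteins, and vault RNA (*Vaultrc5*) binds the large vault particle. Most of them are made by RNA polymerase III, which ends transcripts at a run of T in the DNA and adds no poly(A) tail, whereas *Terc* is made by RNA polymerase II.

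CD8+ T cells were sorted from spleens of mice labelled Foxp3 YFP/cre and kept for 48 hours with sEV, at 100 µg/ml by the labels. The study's culture methods describe stimulating CD8+ T cells with plate-bound anti-CD3, a CD28 antibody and IL2, without naming these libraries. The cells are therefore not to be taken as resting. In 3 libraries the sEVs came from the leukemia microenvironment (LME-sEVs), that is, spleens of Eμ-TCL1 mice, whose human *TCL1* transgene is driven in B cells and gives rise to a B-cell leukemia, and in 4 libraries from the healthy control microenvironment (HCME-sEVs). These groups follow the sample labels. A legend in the study gives the group sizes the other way round, and every direction below rests on the labels. The experiment asked how gene expression in CD8+ T cells differed between both kinds of sEV, and no library without sEVs was analysed here. Poly(A)-primed 3′ RNA-seq with unique molecular identifiers was used, in which an oligo(dT) primer starts the library and a count stands for a captured molecule. The labels do not say that the libraries came from separate animals, so p-values measure only the spread between these libraries. In bulk RNA, fewer cells of a type and less RNA per cell cannot be told apart. The study reports that CD8+ T cells take up these sEVs, and the counts do not separate RNA of the cells from RNA carried by sEVs.

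Libraries held between 3689831 and 5030522 counts. Levels are TMM-normalized CPM, counts scaled to the size of each library, given as mean ± SD, with 4 HCME-sEV and 3 LME-sEV libraries throughout. A level of 3 counts, 0.580 to 0.804 CPM depending on the library, was taken as the floor, which covers counting error only. The CD8 T cell markers summed to 1569 to 1793 CPM with HCME-sEVs and 1834 to 2124 CPM with LME-sEVs, and the CD4 T cell markers stayed at or below 0.580 CPM in every library. Several marker lists of other cells were higher with LME-sEVs in their sums: B cells, 225 to 267 against 303 to 329 CPM, myeloid cells, 1.60 to 3.84 against 3.87 to 7.51 CPM, basophils and mast cells, 5.28 to 33.3 against 23.6 to 35.2 CPM, and erythroid cells and platelets, 71.6 to 175 against 149 to 196 CPM. Over all genes fitted, 3.75% were higher and 5.21% lower with LME-sEVs at a false discovery rate (FDR) under 0.05. Of the markers tested, those with an FDR under 0.05 were all higher with LME-sEVs, 2 of 6 for CD8 T cells, 1 of 3 for B cells, 0 of 1 for myeloid cells, 2 of 4 for basophils and mast cells, and 3 of 6 for erythroid cells and platelets. The part of these cells in the results below was not tested.

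The RNAs that the values turn on are printed 5′ to 3′, as annotated in GENCODE vM21 on GRCm38, because the library method primes on A residues and reads transcripts near their ends. For *Rpph1* and *Rn7sk*, the last 300 bases are shown and capitals mark the last 30 annotated bases, and for *Rny1* and *Rny3* they mark the longest stretch that both Y RNAs share.
Rpph1: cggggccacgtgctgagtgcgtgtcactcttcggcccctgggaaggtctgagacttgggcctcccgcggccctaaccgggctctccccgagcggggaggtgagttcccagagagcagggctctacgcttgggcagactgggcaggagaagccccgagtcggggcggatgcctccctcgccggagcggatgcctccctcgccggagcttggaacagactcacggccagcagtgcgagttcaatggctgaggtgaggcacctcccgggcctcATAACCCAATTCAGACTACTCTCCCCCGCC
Rn7sk: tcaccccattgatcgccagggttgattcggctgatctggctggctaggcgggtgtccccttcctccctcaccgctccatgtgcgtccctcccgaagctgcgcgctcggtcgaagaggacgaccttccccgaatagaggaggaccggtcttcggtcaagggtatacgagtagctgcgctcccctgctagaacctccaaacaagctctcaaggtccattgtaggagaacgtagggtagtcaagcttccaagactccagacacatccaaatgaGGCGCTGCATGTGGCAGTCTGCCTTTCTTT
Rny1: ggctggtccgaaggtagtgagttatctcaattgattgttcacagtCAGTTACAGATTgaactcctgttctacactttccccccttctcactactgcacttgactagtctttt
Rny3: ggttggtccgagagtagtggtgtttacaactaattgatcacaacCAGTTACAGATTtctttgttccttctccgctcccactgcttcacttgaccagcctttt
*Rpph1* is 319 bases long at chr14:50807449-50807767 on the minus strand, and *Rn7sk* is 331 bases long at chr9:78175303-78175633 on the minus strand. The Y RNAs are neighbours on chromosome 6, *Rny1* at chr6:47788069-47788180 on the minus strand and *Rny3* at chr6:47781624-47781725 on the plus strand, with 71.4% of aligned positions identical and a longest shared stretch of 12 bases. Each of these genes is a single exon of a noncoding RNA.

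No member RNA contained 6 or more A in a row. The longest run was 2 in *Rpph1*, *Rny1*, *Rny3* and *Vaultrc5*, 3 in *Rn7sk* and *Rmrp*, 4 in the 7SL RNAs and 5 in *Terc*. Among 22683 annotated transcripts of 100 to 450 bases, 10.9% held a run of 6 A on the transcript strand, the only strand searched. At the annotated end, *Rn7sk* closed with 3 T and *Rny1*, *Rny3* and *Vaultrc5* with 4 T, while *Rpph1*, *Rmrp* and *Terc* closed with no T. These letters are a description of the annotated RNAs and say nothing of tails that the cells may add.

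*Rpph1*, the catalytic RNA of RNase P, had the lowest fold change of the member RNAs with LME-sEVs. Its counts were 26, 41, 23 and 22 in HCME-sEV libraries 1 to 4, which corresponded to 6.24, 10.4, 6.11 and 5.10 CPM. In LME-sEV libraries 1 to 3 the counts were 11, 6 and 4, or 2.95, 1.34 and 0.773 CPM. Every LME-sEV library lay below every HCME-sEV library, with HCME-sEV library 2 the highest. The mean was 6.95 ± 2.32 CPM with HCME-sEVs and 1.69 ± 1.13 CPM with LME-sEVs, a log2 fold change of −2.10 (SE 0.39), or 4.30-fold lower. Of the 12623 genes fitted, 9 had a lower log2 fold change. As *Rpph1* was chosen on this contrast and averaged 19 counts per library, nothing is read from this rank. Counting error alone was wide at these depths, with exact 95% Poisson intervals of 29.4 to 55.6 for the 41 counts of HCME-sEV library 2 and 1.09 to 10.2 for the 4 counts of LME-sEV library 3. Leaving out LME-sEV library 1 moved the log2 fold change to −2.70, and leaving out LME-sEV library 3 moved it to −1.72.

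*Rn7sk*, the RNA of the 7SK particle, carried 86.7% of all counts assigned to the 9 genes. HCME-sEV libraries 1 to 4 held 722, 497, 508 and 418 counts, or 173, 126, 135 and 97.0 CPM. LME-sEV libraries 1 to 3 held 215, 295 and 262 counts, or 57.7, 66.1 and 50.6 CPM. The groups did not overlap, HCME-sEV library 4 being the lowest of its group and still above all LME-sEV libraries. The mean was 133 ± 31.6 CPM with HCME-sEVs and 58.1 ± 7.73 CPM with LME-sEVs, a log2 fold change of −1.19 (SE 0.14), or 2.29-fold lower. When any 1 library was left out, the log2 fold change of *Rn7sk* lay between −1.32 and −1.04.

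*Rny1* was near the floor. Its counts were 6, 9, 7 and 3 with HCME-sEVs and 7, 10 and 1 with LME-sEVs. The groups overlapped, although LME-sEV library 3 lay below all HCME-sEV libraries and under the floor. The means were 1.57 ± 0.67 and 1.44 ± 1.09 CPM, with a log2 fold change of −0.18 (SE 0.58). Without LME-sEV library 3 the log2 fold change was 0.41 and without HCME-sEV library 2 it was 0.06, so the direction for *Rny1* rested on single libraries.

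*Rny3*, the other Y RNA, had 24, 11, 18 and 9 counts with HCME-sEVs and 7, 15 and 22 counts with LME-sEVs. Again the groups overlapped, with means of 3.85 ± 1.71 and 3.16 ± 1.20 CPM and a log2 fold change of −0.24 (SE 0.38). The log2 fold change of *Rny3* was 0.03 when HCME-sEV library 1 was left out and 0.00326 when LME-sEV library 1 was left out.

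*Vaultrc5*, the 143-base vault RNA on the plus strand of chromosome 18, had 27, 39, 26 and 12 counts with HCME-sEVs and 23, 20 and 19 counts with LME-sEVs. Its HCME-sEV libraries spanned 2.78 to 9.85 CPM and enclosed all LME-sEV libraries, which spanned 3.67 to 6.17 CPM. The means were 6.51 ± 2.90 and 4.77 ± 1.27 CPM, with a log2 fold change of −0.46 (SE 0.33). HCME-sEV library 4 was the lowest of its group for *Rpph1*, *Rn7sk*, both Y RNAs and *Vaultrc5*.

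**Figure D1:**
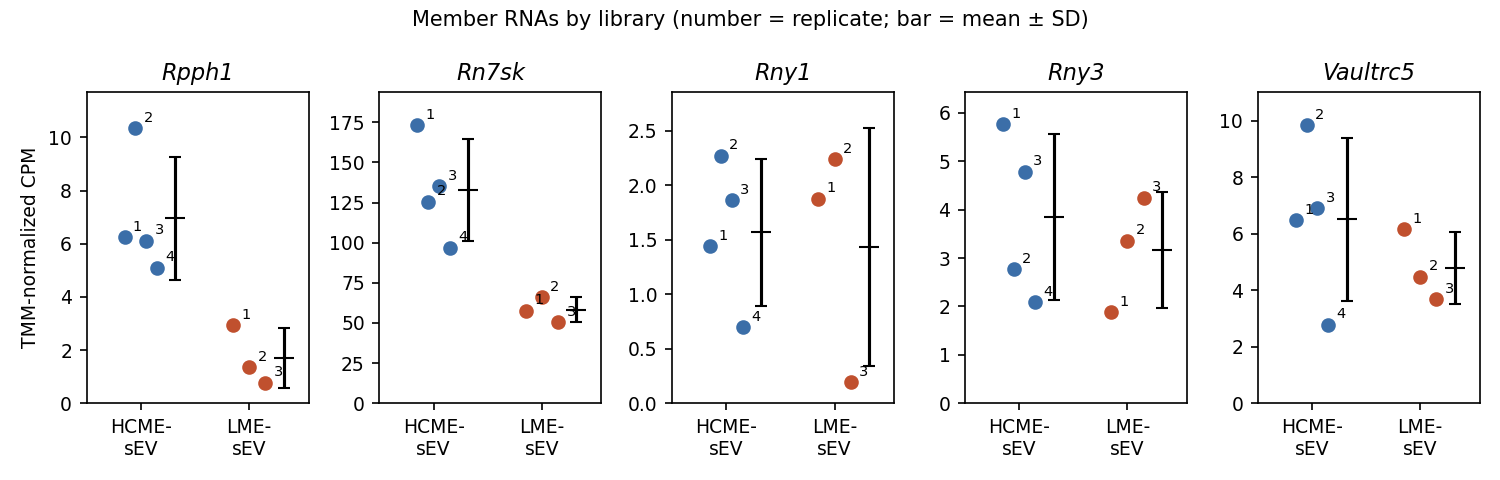
TMM-normalized CPM (vertical axes, each from 0 and on its own scale) of the 5 fitted RNAs, for 4 HCME-sEV and 3 LME-sEV libraries. Points are libraries with their replicate numbers and bars are mean ± SD. The groups are apart for *Rpph1* and *Rn7sk* and overlap for *Rny1*, *Rny3* and *Vaultrc5*.

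All 5 fitted RNAs had a log2 fold change below 0, with a median of −0.46 against 0.01 over all genes fitted. The groups did not overlap for 2 of them, *Rpph1* and *Rn7sk*, beside 20.3% of all genes, or 10.8% with every LME-sEV library lower. As the 9 genes were chosen on this contrast, nothing is read from this median or these shares.

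The remaining 4 RNAs were at or near 0. *Rn7s1* had 1 count, in HCME-sEV library 2, and *Rmrp*, *Rn7s2* and *Terc* had 0 counts in all 7 libraries. *Terc*, the telomerase RNA, is annotated at chr3:96414437-96414859 on the minus strand with no overlapping gene. Its counts were under the floor of 3 counts, 0.804 CPM in the shallowest library and 0.580 CPM in the deepest, so a difference was not detectable. A low level of *Terc* and poor capture by the oligo(dT) primer cannot be told apart here. *Rn7s1* at chr12:69159295-69159594 (plus strand) and *Rn7s2* at chr12:69361182-69361481 (minus strand) are identical over all 300 bases, so a read from one cannot be told from a read from the other. For the 7SL RNAs and for *Rmrp*, which has 2 overlapping records, reads that match both records may not have been counted, so their counts set no limit on the level.

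Position limited what could be counted for some members. *Rpph1* shares 233 exonic bases with *Ccnb1ip1* on the same strand, so reads from this stretch cannot be placed in one gene by position, and *Ccnb1ip1* itself had at most 1 count in a library. *Parp2*, which codes for a DNA repair enzyme and starts on the opposite strand 73 bases from *Rpph1*, had 80.3 ± 7.46 CPM with HCME-sEVs and 76.9 ± 4.53 CPM with LME-sEVs (log2 fold change −0.07, SE 0.09, FDR = 0.741). *Rmrp*, at chr4:43492788-43493058 on the minus strand, lies within a slightly longer second record of the same name and has 124 exonic bases opposite *Ccdc107*, which had 88 to 134 counts per library. Whether counting used the strand is not given in the sources used here. For *Rn7sk*, 1 annotated copy with at least 80% identity over at least 80% of its length had counts, *Gm23037* (89.2% identical), with at most 8 counts in a library beside at least 215 for *Rn7sk*. *Rny1* had 13 such copies, 3 of them with counts. *Fpgt*, a protein-coding gene with a stretch 81.2% identical to *Rny1*, held nearly all of these, with 70, 57, 59 and 70 counts in the HCME-sEV libraries and 55, 90 and 83 in the LME-sEV libraries. *Gm26168* (92.7% identical) had 3, 0, 1 and 2 counts with HCME-sEVs and 4, 2 and 5 with LME-sEVs, and *Gm26124* had 1 count in all. Reads may be split between *Rny1* and these copies, so its level is uncertain.

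**Figure D2:**
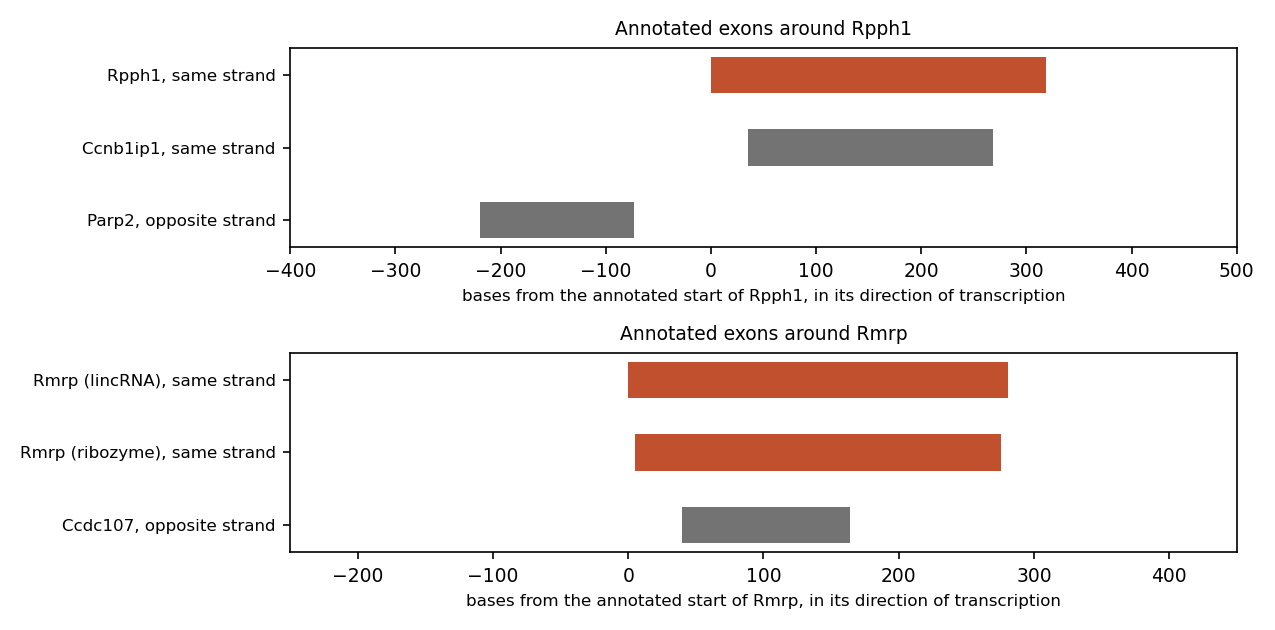
Annotated exons around *Rpph1* and *Rmrp*, in bases from the annotated start of each RNA in its direction of transcription (GENCODE vM21), drawn to scale, with member RNAs in red and other genes in grey. *Ccnb1ip1* covers 233 bases of *Rpph1* on its own strand, *Parp2* begins 73 bases away, and *Ccdc107* lies opposite 124 bases of *Rmrp*.

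The member RNAs were set beside other short noncoding RNAs of the same libraries, the small nucleolar (Snord, Snora), small Cajal body (Scarna) and spliceosomal (Rnu) RNAs. The lists of these RNAs and of the histone genes below were chosen with earlier results of these data known. Their shares are therefore not independent of this comparison. Of these short noncoding RNAs, 35 were fitted, 33 had a log2 fold change below 0, and the median was −0.97. With an FDR under 0.05 in edgeR's quasi-likelihood test, 17 were lower and 0 higher with LME-sEVs (0 higher also at an unadjusted p under 0.05, in DESeq2 and in limma-voom), 48.6% of those fitted beside 8.96% of all genes in either direction, 5.21% lower and 3.75% higher. Of the 17, 13 also met the study's criterion for differential expression, a log2 fold change beyond 1, beside 1.28% of all genes in either direction and 0.658% lower. As a description only, among the 35 1 had a lower log2 fold change than *Rpph1*, 10 had a lower one than *Rn7sk*, and 30, 29 and 27 had a lower one than *Rny1*, *Rny3* and *Vaultrc5*. By class, the median log2 fold change was −0.64 for 18 Snord, −1.07 for 12 Snora, −1.38 for 3 Scarna and −1.43 for 2 Rnu genes. The replication-dependent histone genes, whose mRNAs also lack a poly(A) tail as a rule, had a median log2 fold change of −0.48 over 46 genes, with 7 lower and 1 higher at an FDR under 0.05. The higher gene, *H2ac10*, rested on LME-sEV library 2 (5, 2, 5 and 6 counts with HCME-sEVs, 3, 98 and 3 with LME-sEVs), and *H2ac14*, among the lower, on HCME-sEV libraries 2 and 3 (0, 22, 22 and 0 counts, and 0 in each LME-sEV library). Both were named after their values were seen.

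**Figure D3:**
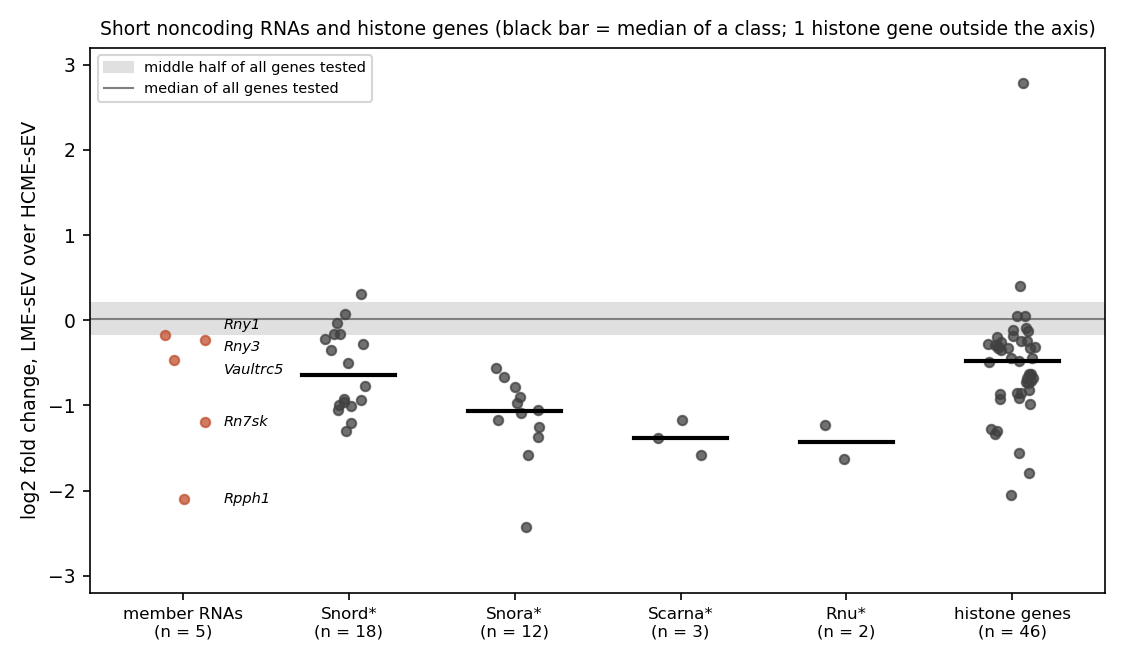
Log2 fold change, LME-sEV over HCME-sEV (vertical axis), for the 5 fitted member RNAs (red) and for Snord, Snora, Scarna, Rnu and histone genes (grey, 1 point per gene), with black bars as class medians. The grey band spans the first to the third quartile of all genes fitted and 1 histone gene lies outside the axis. All 5 member RNAs lie below the band, *Rny1* only just, and class medians run from −0.48 to −1.43.

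The sum of the other short noncoding RNAs was 869, 795, 755 and 642 CPM with HCME-sEVs and 480, 498 and 433 CPM with LME-sEVs, without overlap. *Rn7sk* followed nearly the same order of libraries, with the highest value of both measures in HCME-sEV library 1, the lowest of the HCME-sEV libraries in library 4 and the lowest of all in LME-sEV library 3. Per 100 counts of these other RNAs there were 19.96, 15.8, 17.9 and 15.1 counts of *Rn7sk* with HCME-sEVs and between 11.7 and 13.3 with LME-sEVs. The groups were still apart on this scale, at 17.2 ± 2.20 against 12.3 ± 0.83. The sum is weighted to its most abundant RNAs, *Snora73b*, *Snord13*, *Snord89* and *Snord104* (186, 128, 122 and 84.4 CPM with HCME-sEVs). Their log2 fold changes were −0.97, −0.28, −0.77 and −0.16, and they were named after their values were seen. The ratio therefore does not set *Rn7sk* apart from short noncoding RNAs in general, as the Snora, Scarna and Rnu medians were −1.07, −1.38 and −1.43. For *Rpph1* the same ratio was 0.91 ± 0.27 with HCME-sEVs and 0.35 ± 0.23 with LME-sEVs.

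**Figure D4:**
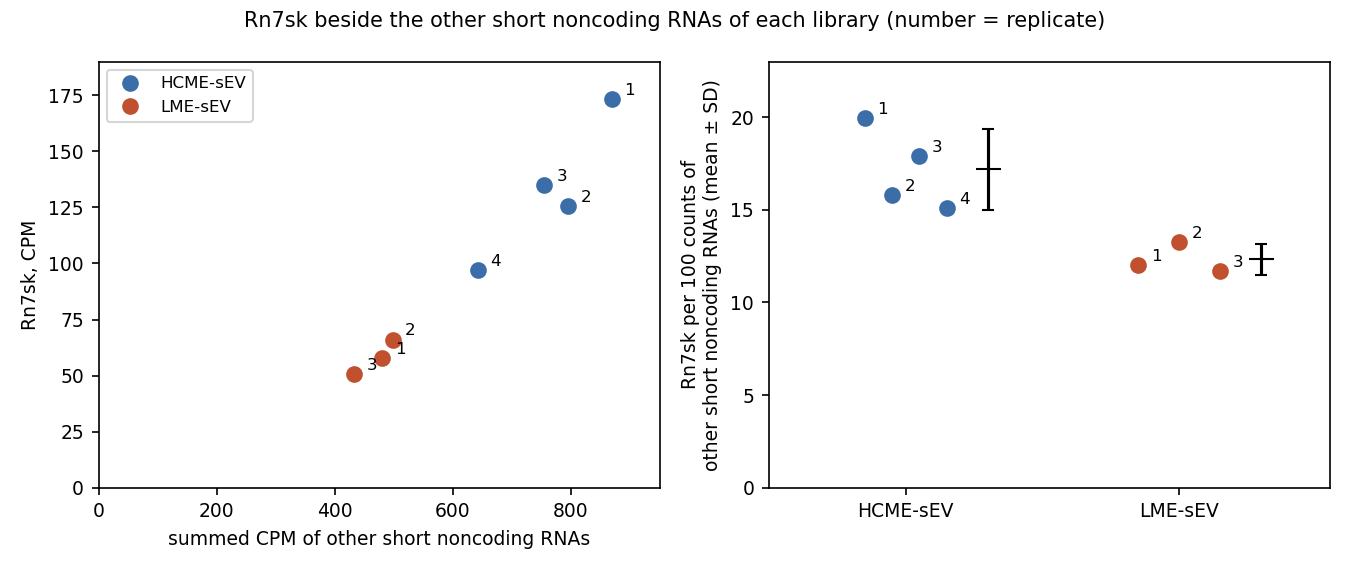
Left, *Rn7sk* (CPM) against the summed CPM of the other short noncoding RNAs, 1 point per library. Right, counts of *Rn7sk* per 100 counts of those RNAs, with mean ± SD over 4 HCME-sEV and 3 LME-sEV libraries. LME-sEV libraries are lowest on both axes at left and lie below all HCME-sEV libraries at right.

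The genes whose pattern over the 7 libraries was nearest to that of *Rn7sk* were sought among the 9694 genes averaging 20 or more counts, by the root mean square distance of centred log2 CPM. They were *Snora20*, a small nucleolar RNA (0.125), *Hbegf*, which codes for a growth factor that binds the EGF receptor (0.142), and *Gm25291* (0.179), against a spread of *Rn7sk* around its own mean of 0.626 on the same scale. Nearest to *Vaultrc5* were *Timm8a1*, a mitochondrial import chaperone gene (0.244), *Bax*, a gene that promotes apoptosis (0.270), and *A330023F24Rik* (0.280), against its own spread of 0.521. *Rpph1* and the Y RNAs were below the count minimum for this measure.

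The protein partners of these RNAs were tested, and none of them is among the 9 genes. Their lists were also chosen with earlier results of these data known, so the shares below are not independent of this comparison. Of 45 partner genes, 43 were in the table and 40 were fitted. With an FDR under 0.05 in edgeR's quasi-likelihood test, 6 were lower and 1 was higher with LME-sEVs, 17.5% of those fitted beside 8.96% of all genes, and their median log2 fold change was −0.16 against 0.01 over all genes fitted. The 6 lower genes fell by 0.26 to 0.62 on the log2 scale.

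For RNase P and RNase MRP, which share most of their proteins, 10 subunit genes were fitted and 10 had a log2 fold change below 0, with a median of −0.29. Of all 12623 genes fitted, 6126 were below 0. The test was passed by 2 of the 10, 20% beside 8.96% of all genes. *Rpp14* fell from 99.8 ± 14.2 to 77.8 ± 8.89 CPM (log2 fold change −0.37, SE 0.11, FDR = 0.0401), with groups that overlapped. *Pop5* fell from 79.1 ± 7.28 to 62.5 ± 0.49 CPM (log2 fold change −0.34, SE 0.09, FDR = 0.0275), and its groups did not overlap. The subunit genes *Rpp30* (log2 fold change −0.36, FDR = 0.0580), *Pop7* (−0.31, FDR = 0.136) and *Rpp40* (−0.33, FDR = 0.294) did not pass the test. The call of *Pop5* was lost without HCME-sEV library 1 or 2 or any 1 LME-sEV library (highest FDR 0.110), and that of *Rpp14* without HCME-sEV library 1, 2 or 4 or LME-sEV library 2 or 3 (highest FDR 0.231).

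For the 7SK particle, 1 of 8 fitted genes passed the test, 12.5% and near the 8.96% of all genes. *Larp7*, whose protein binds and stabilizes 7SK RNA, fell from 173 ± 6.08 to 144 ± 4.94 CPM (log2 fold change −0.26, SE 0.08, FDR = 0.0358). Its 4 HCME-sEV libraries, at 171, 181, 166 and 174 CPM, were all above the LME-sEV libraries at 150, 141 and 142 CPM. The call of *Larp7* was lost without HCME-sEV library 2 or 4 or any 1 LME-sEV library (highest FDR 0.149). *Hexim2*, one of the inhibitors that 7SK RNA presents to P-TEFb, had a log2 fold change of 0.40 (FDR = 0.429), and the list's median was −0.03.

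For the signal recognition particle and its receptor, 8 of 8 fitted genes had a log2 fold change below 0, beside 6126 of all 12623 genes. The test was passed by 1, which is 12.5% and near the 8.96% of all genes. *Srp19*, whose protein binds 7SL RNA, fell from 211 ± 30.1 to 167 ± 15.5 CPM (log2 fold change −0.34, SE 0.10, FDR = 0.0381). The groups of *Srp19* overlapped, and its call was lost without HCME-sEV library 1 or 2 or LME-sEV library 2 or 3 (highest FDR 0.214).

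Of the telomerase and H/ACA protein genes, 10 were fitted, and 2 fell and 1 rose at an FDR under 0.05, 30% beside 8.96% of all genes. *Dkc1*, the gene of dyskerin, which binds telomerase RNA and H/ACA RNAs, had 792, 740, 639 and 645 CPM with HCME-sEVs and 504, 442 and 432 CPM with LME-sEVs. The groups did not overlap, and *Dkc1* fell from 704 ± 74.9 to 459 ± 39.0 CPM (log2 fold change −0.62, SE 0.09, FDR = 2.56e-04). *Nhp2*, coding for another core protein of these particles, fell from 100.4 ± 9.42 to 76.2 ± 5.40 CPM (log2 fold change −0.40, SE 0.09, FDR = 0.0112), with an FDR of 0.0937 without LME-sEV library 3. *Naf1*, an assembly factor gene, had a log2 fold change of −0.28 (FDR = 0.0750).

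*Tert*, the gene of the catalytic subunit of telomerase, rose. Its RNA partner *Terc* had 0 counts throughout, and whether the poly(A)-primed method captures *Terc* was not tested, so *Tert* cannot be set against it. *Tert* had 8, 10, 6 and 8 counts with HCME-sEVs and 12, 17 and 33 counts with LME-sEVs, or 1.97 ± 0.39 against 4.47 ± 1.68 CPM (log2 fold change 1.20, SE 0.36, FDR = 0.0395). All LME-sEV libraries of *Tert* were above all HCME-sEV libraries, but its call was lost without any 1 HCME-sEV library or LME-sEV library 2 or 3 (highest FDR 0.316). No gene of the Y RNA and vault proteins passed the test in edgeR (0 of 4, 2 at an unadjusted p under 0.05), and 1 was called in DESeq2 and 1 in limma-voom. *Ssb*, the gene of La, which binds the 3′ ends of RNA polymerase III transcripts, had 1266 ± 134 and 1053 ± 63.6 CPM (log2 fold change −0.27, FDR = 0.0522) and was chosen after its values were seen.

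The machinery that makes most of these RNAs was tested in the same way, and the choice of its list has the same limit. The 30 RNA polymerase III genes fitted were 13 subunits and 17 listed as initiation factors, among them *Maf1*, whose protein represses the polymerase. Of the 30, 1 passed the test in edgeR, 3.33% beside 8.96% of all genes, and the median log2 fold change was −0.12. *Polr3d*, a subunit gene, fell from 71.3 ± 4.30 to 50.2 ± 7.69 CPM (log2 fold change −0.52, SE 0.11, FDR = 0.00452), and the groups did not overlap. Without LME-sEV library 2 its FDR was 0.0515. The next largest differences, in *Snapc4* (log2 fold change −0.37), *Crcp* (−0.35), *Gtf3c6* (−0.34), *Polr3e* (−0.31) and *Polr3g* (−0.29), had FDR values of 0.0982 to 0.224.

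**Figure D5:**
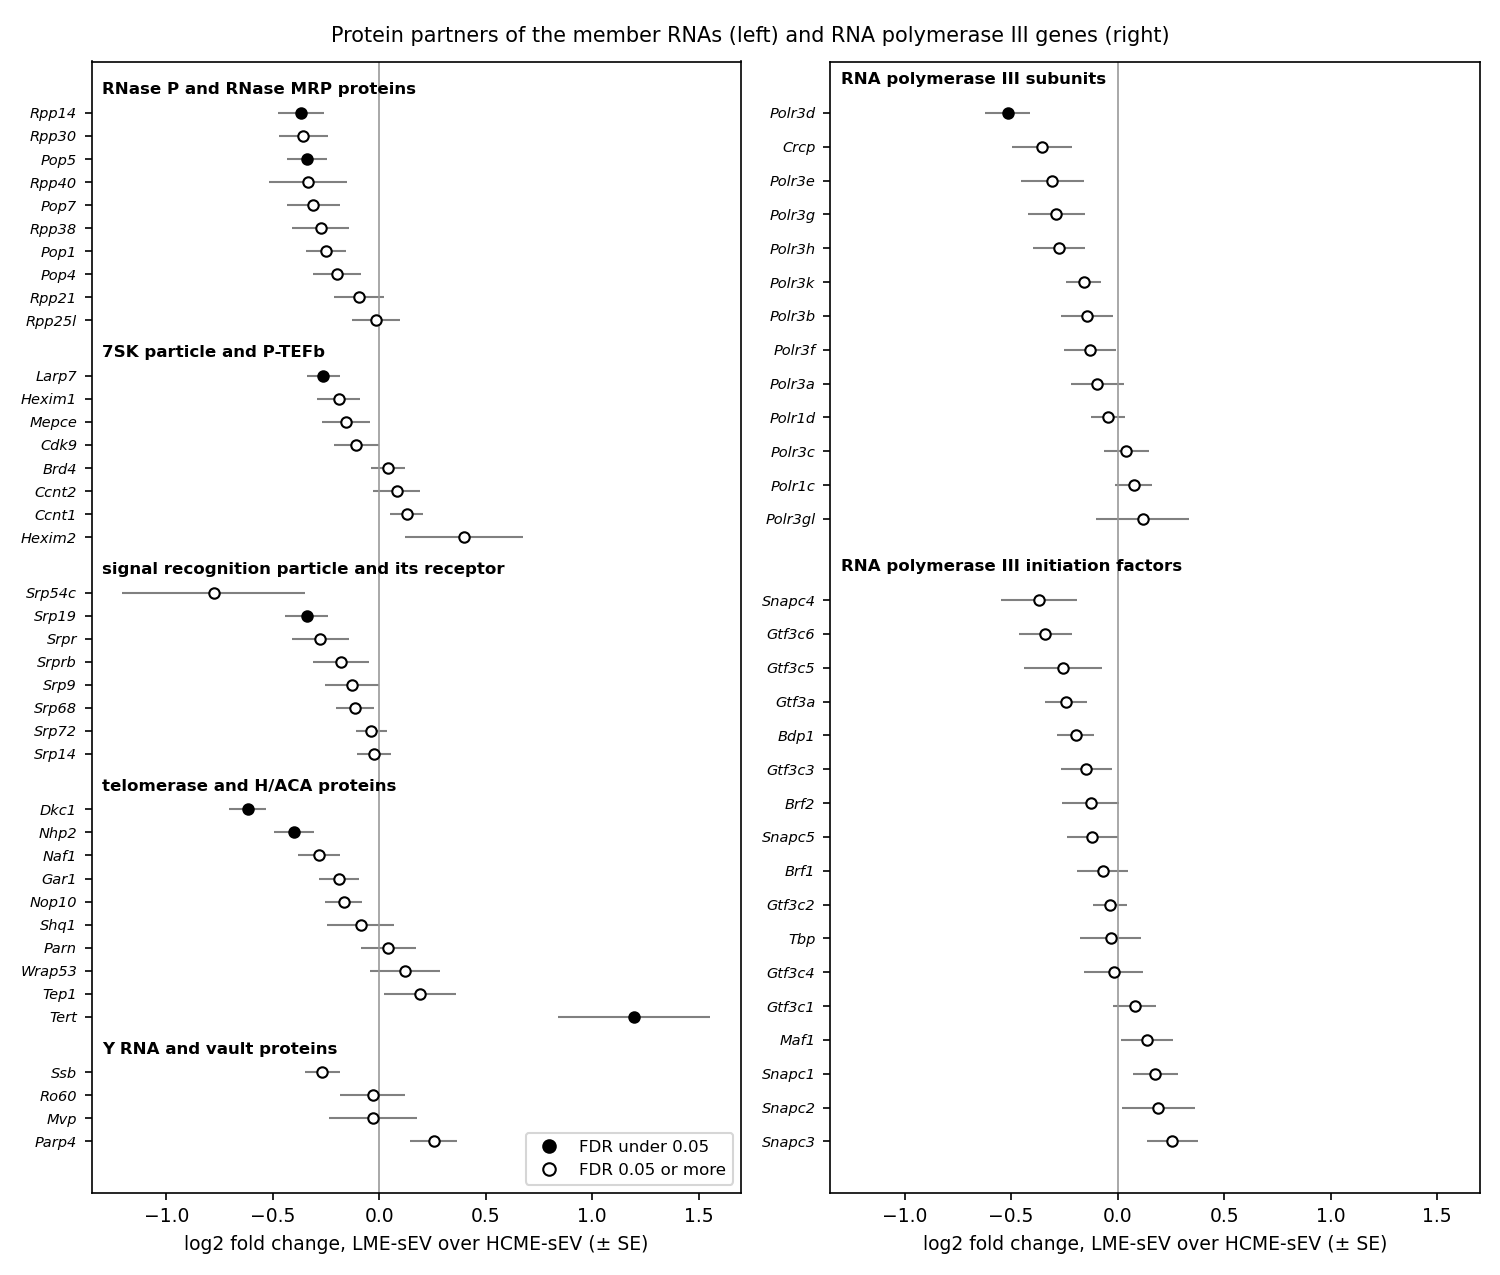
Log2 fold change, LME-sEV over HCME-sEV (horizontal axis, bars ± SE), for 40 protein partner genes at left, by particle, and 30 RNA polymerase III genes at right. Filled points have an FDR under 0.05 in edgeR. Those are *Rpp14*, *Pop5*, *Larp7*, *Srp19*, *Dkc1*, *Nhp2* and *Polr3d* below 0 and *Tert* above 0.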

How the data were processed

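The authors deposited raw counts per gene symbol for 7 libraries. Per the labels, the QuantSeq 3′ kit with unique molecular identifiers was used, and the submitters' processing notes name cutadapt 2.10, STAR 2.5.3a, UMI-tools 1.0.0, featureCounts of Subread 2.0.0 and the builds GRCm38 and mm10. The annotation release and the strand setting are not given in the sources used here. Collapsing by molecular identifier removes PCR copies, and priming on poly(A) or internal A stretches limits how RNAs without a tail are counted. The labels give 100 µg/ml of sEVs for both groups, whereas the methods speak of the physiologic amount in the respective spleen. The study reports more sEVs per gram of leukemic than of healthy spleen. If the methods hold for these libraries, dose and kind of sEV cannot be told apart in any comparison above.

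Genes averaging 5 or more counts per library were normalized by TMM and tested with edgeR 4.0.16 (glmQLFit, glmQLFTest) in R 4.3.3, LME-sEV against HCME-sEV, without covariates, and p-values were adjusted over all 12623 genes (Benjamini-Hochberg, FDR). Scripts were tested on simulated data. The member genes and all lists were chosen with earlier results of these data known. Named genes were the members, every partner and RNA polymerase III gene with an FDR under 0.05, the next 5 of each by absolute log2 fold change with a mean of at least 20 counts, *Ccnb1ip1* and *Parp2*, and 3 nearest genes per member with a mean of at least 20 counts. Histone genes were matched by the symbols in use in the table. Positions and sequences came from GENCODE vM21, and copies were sought with blast 2.17.0. Alternatives were other filters and normalizations, DESeq2 1.42.0, limma-voom (limma 3.58.1), a replicate block and leaving out each library.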

Additional observations from a re-analysis of the deposited data

Results flagged for a closer look

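For 2 genes, 1 HCME-sEV library stood far from the other 3, out of 27 levels checked (member RNAs, named genes and 3 sums) by Dixon's test, where chance gives about 1.35. For *Hexim2*, HCME-sEV library 4 had 7.43 CPM and the others 4.52 to 4.80 CPM, a gap of 0.904 of the group's range. For *Rpp40*, HCME-sEV library 1 had 26.2 CPM and the others 16.2 to 17.9 CPM, a gap of 0.834 of the range. Neither gene passed the test between groups.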

How the results depend on the processing

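Over 16 alternatives, *Rn7sk* and *Vaultrc5* kept a negative log2 fold change in 16 and *Rpph1* in the 15 that gave it a value. Leaving out 1 library in turn gave −2.70 to −1.72 for *Rpph1*, and the number of genes called ranged from 391 to 1305 against 1131, with 391 without LME-sEV library 2, 458 without LME-sEV library 3 and 723 without HCME-sEV library 2. Differentially expressed genes ranged from 83 to 184 against 162 when 1 library was left out, with 83 and 90 without LME-sEV libraries 2 and 3, and numbered 97 in DESeq2. Partner genes called ranged from 1 to 9 against 7, and those lower from 1 to 9 against 6. With upper quartile normalization 4 were called and 3 lower, and with library size only 3 were called and 2 lower. RNA polymerase III genes called ranged from 0 to 3 against 1, and numbered 2 with no filter on low counts. *Dkc1* passed in all 16 alternatives and *Nhp2* and *Polr3d* in 15, whereas *Pop5* and *Srp19* were lost in 6, *Rpp14* in 7 and *Larp7* in 8 of 16. Fits without a library rest on fewer samples, and the cause of the other changes was not tested.

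With the replicate number as a block, 10 partner genes were called, 10 of them lower, and 3 RNA polymerase III genes, and *Tert*, lost in 8 of 15 alternatives in all, had an FDR of 0.0782, while *Parp2* reversed to a log2 fold change of 6.69e-04 (FDR = 0.997). Same-numbered libraries correlated by 0.072, 0.155 and 0.027 in their deviations from the group means, so the numbers were not taken to pair the libraries. Depth limited *Rpph1*, the Y RNAs, *Vaultrc5* and *Tert*, all within 1 to 41 counts per library.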
